A study of Rattus norvegicus with 9 samples.

Results

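RNA-Seq values of 9 genes that mark large-diameter sensory neurons were examined in dorsal root ganglia (DRGs) of rats with chronic post-ischemia pain (CPIP). The genes were Nefh, Nefm, Nefl, Pvalb, Runx3, Spp1, Whrn, Etv1 and Calb1, chosen by symbol for their known use as markers of large-fiber mechanoreceptors and proprioceptors. All 9 were present in the table of 20413 genes, and all 9 were among the 17187 genes tested, which had to average 0.1 FPKM or more. FPKM is the number of fragments divided by transcript length and library size, so levels of different genes are compared here per length. The aim of the study was to describe gene expression in the DRG after CPIP, a model of complex regional pain syndrome, and after its treatment with electroacupuncture (EA).

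The animals were male Sprague Dawley rats 8 to 10 weeks old. In the CPIP group a tight O-ring stopped the blood flow of the right hind paw for 3 h under anesthesia and was then cut off for reperfusion. Sham rats, labelled Con, were anesthetized as well, but their ring was open and caused no ischemia. The CPIP+EA group had the CPIP procedure and then EA once a day at the acupoints ST36 and BL60 on both sides. DRGs of the segments L4-6 on the right side were taken on day 10 after saline perfusion in all 3 groups. Each group had 3 libraries, and no group received EA without CPIP or needles without current. Per the study's methods the RNA came from 3 rats a group, while the labels do not tie a library to a rat, so p-values here measure the spread between these libraries.

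The DRG holds the cell bodies of the sensory neurons of the limb. Neurons with large bodies and thick myelinated axons carry touch, vibration and muscle stretch, whereas most neurons for pain, warmth and itch are small and have thin or unmyelinated axons. Neurofilaments, built from a light, a medium and a heavy chain, fill thick axons and set their calibre, and peripherin is the related filament protein of small sensory neurons. Parvalbumin and calbindin are calcium-binding proteins of subsets of these cells, and Runx3 and Etv1 are transcription factors needed for proprioceptors. In these whole ganglia, fewer neurons of a type and less RNA per neuron cannot be told apart.

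The FPKM of a library summed to between 445647 and 482940, with 18279 to 18456 genes above 0. The smallest steps between the values of 1411 rarely read genes gave a relative depth of 0.9902 to 1.0075 across the libraries, so depth was nearly equal, and the read count behind a single value is not known. The markers of injured axons separated Sham from both groups with CPIP. All 10 of 10 (Atf3, Sox11, Jun, Sprr1a, Gal, Npy, Gadd45a, Gap43, Csrp3 and Ecel1) rose in CPIP vs. Sham, from 5.67 to 56.0 mean FPKM for Atf3, and all 10 rose in CPIP+EA vs. Sham. These calls are by the threshold for differentially expressed genes (DEGs), 1.5-fold and an adjusted p under 0.01 by limma, which 0.355% and 0.483% of all genes tested passed. The calls of Jun, Gap43 and Sox11 missed the adjusted p of 0.01 under some alternatives. The summed FPKM of the 10 was 193 to 198 in Sham, 836 to 971 in CPIP and 913 to 1026 in CPIP+EA. Muscle markers (8 genes, among them Acta1, Ckm and Tnnt3) summed to 130.0 FPKM in CPIP replicate 2 and to between 8.02 and 40.7 in the other 8 libraries. Schwann cell markers (7 genes, among them Pmp22) summed to 7103 to 11286 in Sham, 6752 to 12058 in CPIP and 4738 to 9432 in CPIP+EA. Satellite glia markers (6 genes) ranged from 443 to 533 over all libraries.

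Genes of sensory neurons were among the most abundant in this tissue. Nefl was the gene with rank 4 by mean FPKM in Sham, Nefm had rank 6 and Nefh rank 22 of all genes in the table. The 9 genes spanned a wide range of levels. Nefl was above Nefm, and Nefm above Nefh, in 9 of 9 libraries. Below them came Spp1, Pvalb, Etv1, Whrn and Runx3, in this order in 9 of 9 libraries, and Nefh was above Spp1 in 8 of 9, all but CPIP+EA replicate 3. Calb1 and Runx3 were the lowest, and their order was not stable. Runx3 was above Calb1 in 2 of 3 Sham, 1 of 3 CPIP and 0 of 3 CPIP+EA libraries.

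**Figure D1:**
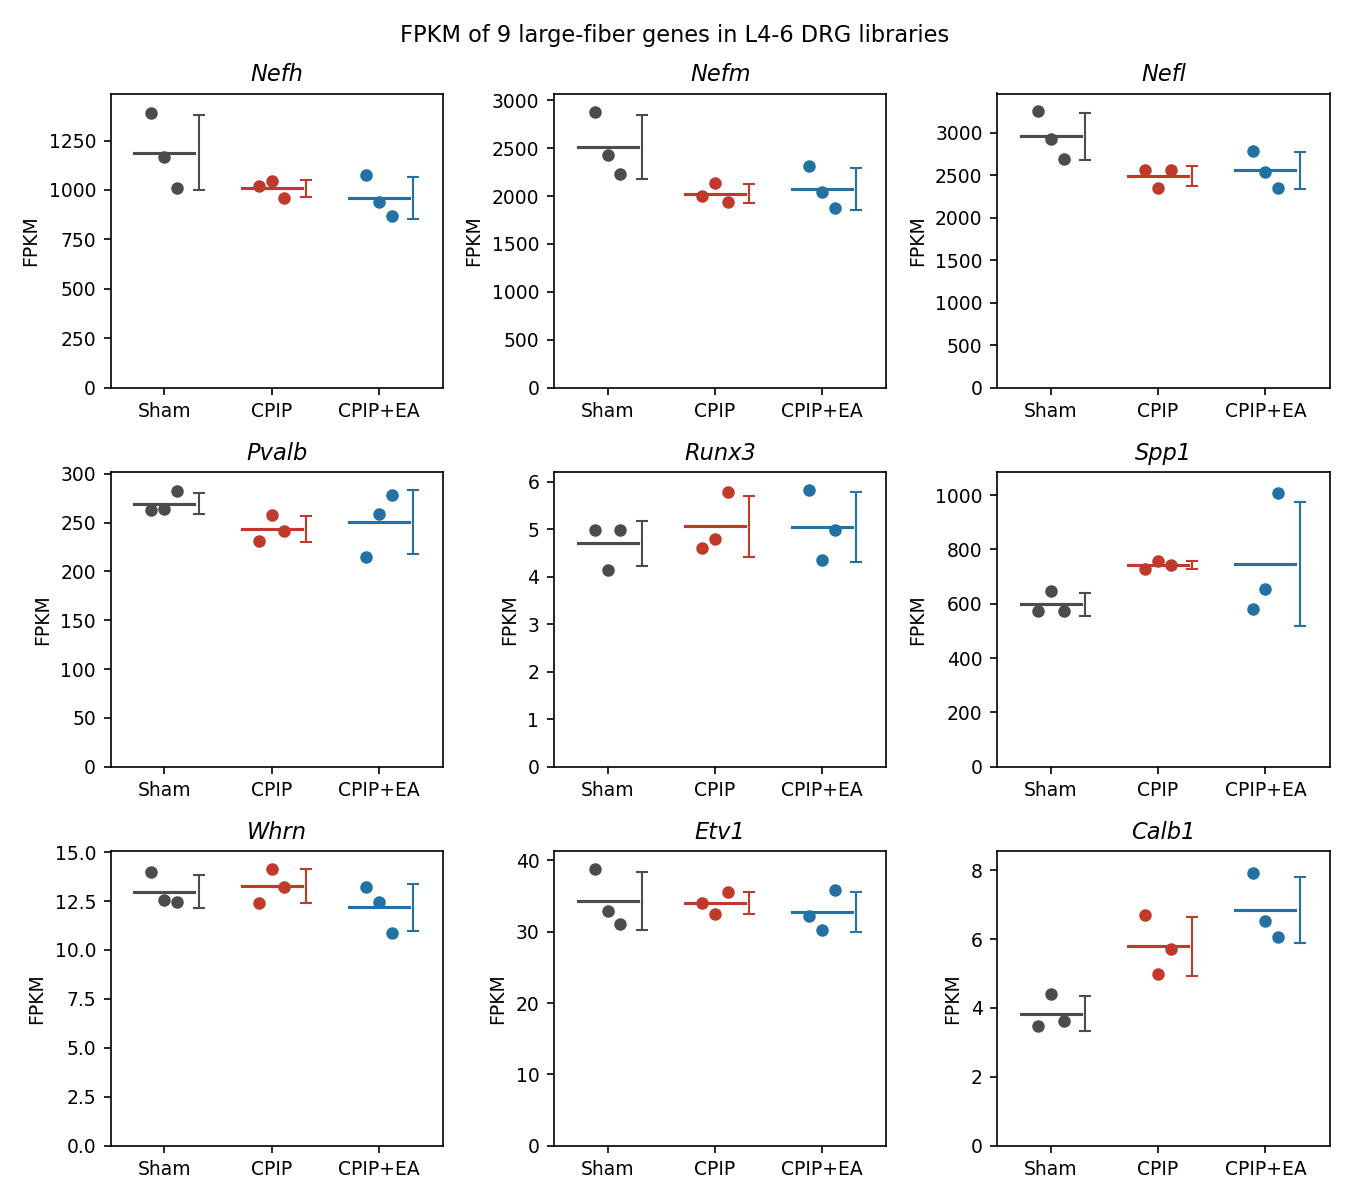
FPKM of the 9 genes in each library (points, y axis from 0), with the group mean as a line and the SD of 3 libraries as a bar, for Sham, CPIP and CPIP+EA. Calb1 averaged 3.83 in Sham and 6.83 in CPIP+EA, and the spread of Spp1 in CPIP+EA came from a library at 1008.

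Between CPIP and Sham, 0 of the 9 genes passed the threshold for a DEG, a Benjamini-Hochberg adjusted p under 0.01 over all genes tested by limma with at least a 1.5-fold change, which 61 genes (0.355%) passed. At an unadjusted p under 0.05, 1 of 9 (Calb1, higher in CPIP) passed, against 8.66% of all genes tested. The libraries of the groups did not overlap for 5 of 9, against 15.9% of all genes tested. Of these 5, Nefm, Nefl and Pvalb were lower and Spp1 and Calb1 higher in CPIP. The median log2 fold change of the 9 genes was -0.0054, and that of all genes tested -0.0064. For 6 of 9 genes the 95% confidence interval of the fold change lay within 1.5-fold in either direction, and the other 3 were Nefm, Spp1 and Calb1.

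Between CPIP+EA and CPIP, 0 of 9 genes passed the DEG threshold, which 0.0% of all genes tested passed. At an unadjusted p under 0.05 there were 0 of 9, against 4.29% of all genes tested, and the libraries of the groups overlapped for all 9 (0 of 9 apart, against 8.23%). The intervals of all 9 genes lay within 1.5-fold in either direction. The median log2 fold change was -0.0049, beside 0.0117 over all genes tested.

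Between CPIP+EA and Sham, 0 of 9 genes passed the DEG threshold, against 0.483% of all genes tested. Calb1 alone was under an unadjusted p of 0.05 (1 of 9, against 12.2%) and was the only 1 of 9 whose libraries did not overlap (against 16.2%). The median was -0.09, beside 0.0014 over all genes tested, and 5 of 9 intervals lay within 1.5-fold. The last comparison shares its Sham libraries with the first and its CPIP+EA libraries with the second, so the 3 are not independent of each other.

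**Figure D2:**
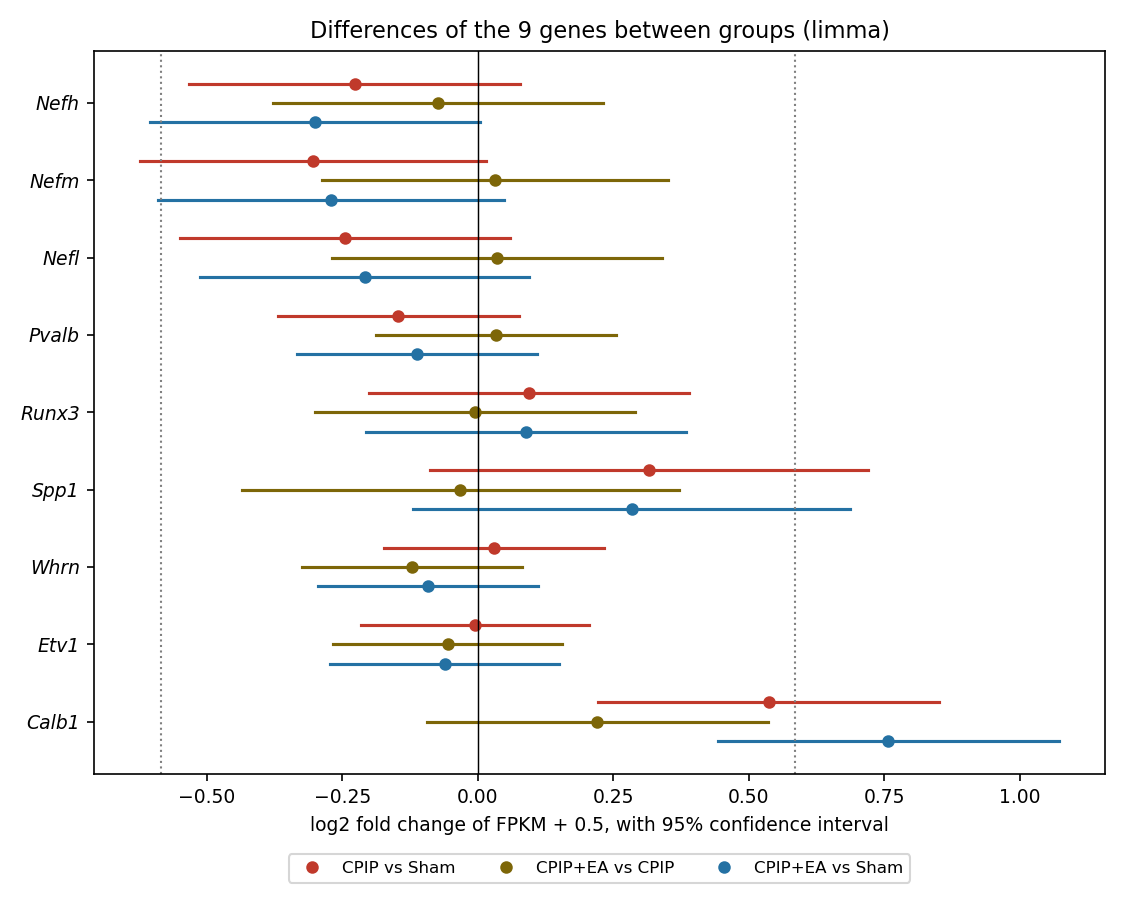
The x axis gives the log2 fold change of FPKM + 0.5 of each gene (y axis) with its 95% confidence interval by limma, and dotted lines mark 1.5-fold in either direction. The intervals of Calb1 in CPIP vs. Sham and CPIP+EA vs. Sham lie above 0, and the other 25 intervals hold 0.

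The neurofilament chains were the most abundant of the 9 genes. Nefh (gene ID 24587), the heavy chain, had an FPKM of 1390.5, 1166 and 1011 in Sham, 1019.8, 1046 and 958 in CPIP, with 1076, 939.5 and 868 in CPIP+EA, in the order of the replicates. Sham replicate 1 was the highest library, and the groups overlapped in all 3 comparisons. The means were 1189 ± 191, 1008 ± 44.9 and 961 ± 106 (SD, n = 3 in Sham, CPIP and CPIP+EA). The log2 fold change was -0.23 (95% interval -0.53 to 0.08) in CPIP vs. Sham, with an adjusted p of 0.754 by limma. It was -0.30 (-0.61 to 0.0046) in CPIP+EA vs. Sham, with an unadjusted p of 0.0529 and an adjusted p of 0.414 by limma. Without Sham replicate 1 these values were -0.11 and -0.18, the latter with an unadjusted p of 0.183. In CPIP+EA vs. CPIP it was -0.07, and -0.16 to -0.0028 with 1 library left out.

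Nefm (gene ID 24588), the medium chain, had an FPKM of 2874, 2434 and 2225 in Sham, 2004, 2134 and 1937 in CPIP, with 2312, 2039 and 1877 in CPIP+EA. All 3 CPIP libraries were below all 3 Sham libraries, whereas CPIP+EA replicate 1 reached into the Sham range. Its means were 2511 ± 331, 2025 ± 100 and 2076 ± 220 (SD, n = 3 each). The difference in CPIP vs. Sham was -0.30 on the log2 scale (-0.62 to 0.016), with an unadjusted p of 0.0602 and an adjusted p of 0.619 by limma. It was 0.03 (-0.29 to 0.35) in CPIP+EA vs. CPIP, and in CPIP+EA vs. Sham -0.27 (-0.59 to 0.05). Leaving out Sham replicate 1, the library with the highest Nefm, gave -0.20 in CPIP vs. Sham and -0.17 in CPIP+EA vs. Sham.

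Nefl (gene ID 83613), the light chain on which the filament is built, had an FPKM of 3254, 2927 and 2697 in Sham, 2562, 2352 and 2562 in CPIP, with 2788, 2534 and 2354 in CPIP+EA. As for Nefm, every CPIP library was below every Sham library, and CPIP+EA overlapped both. The means of Nefl were 2959 ± 280, 2492 ± 121 and 2559 ± 218 (SD, n = 3 each). The log2 fold change was -0.24 (-0.55 to 0.06) in CPIP vs. Sham, with an adjusted p of 0.714 by limma, 0.04 (-0.27 to 0.34) in CPIP+EA vs. CPIP and -0.21 (-0.51 to 0.095) in CPIP+EA vs. Sham. The value of CPIP vs. Sham was below 0 for each of the 3 chains under all 21 alternatives tried. A part of these could not change it. Another filter, trend or choice of groups, the replicate block and leaving out a CPIP+EA library keep the same difference of means. No chain passed the DEG threshold in this comparison under any of the 21. Without Sham replicate 1 the values of Nefl were -0.17 in CPIP vs. Sham and -0.14 in CPIP+EA vs. Sham.

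Over the 9 libraries, which share the groups, Pearson's r of the log2 values was 0.96 for Nefh and Nefm, 0.911 for Nefm and Nefl and 0.883 for Nefh and Nefl. Nefh was 0.400, 0.406 and 0.375 of Nefl on average in Sham, CPIP and CPIP+EA, and Nefm 0.847, 0.815 and 0.81 of Nefl. The Schwann cell markers were read beside them. Their sums were 7103, 9084 and 11286 in Sham replicates 1 to 3 and 4738, 6996 and 9432 in CPIP+EA, the reverse of the order of all 3 chains in both groups. For CPIP the sums were 12058, 11088 and 6752. Nefm and Nefh were highest there in replicate 2 and lowest in replicate 3, while Nefl was lowest in replicate 2 and nearly equal in the others, with a Nefh to Nefl ratio of 0.445 in replicate 2 against 0.398 and 0.374. The part of the share of nerve in the sample in these values was not tested.

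Peripherin (Prph), the filament protein of small neurons, was read beside the neurofilaments as a member of the small-fiber list. In that list of 12, the log2 fold change of CPIP vs. Sham was below 0 for 9, with a median of -0.15. Prph had the highest of the 12, so it does not stand for the list. The FPKM of Prph was 1044, 970.1 and 919.9 in Sham, 1111, 1092 and 1365 in CPIP, with 1314, 1350.1 and 1109.7 in CPIP+EA. Every CPIP and every CPIP+EA library was above every Sham library. The log2 fold change of Prph was 0.28 in CPIP vs. Sham (unadjusted p = 0.0557, adjusted p = 0.599 by limma) and 0.36 in CPIP+EA vs. Sham (unadjusted p = 0.0189, adjusted p = 0.284).

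The ratio of each chain to Prph within a library is given beside them, a measure formed after these values were seen. The ratio Nefm to Prph in the Sham libraries was 2.75, 2.51 and 2.42. It was 1.80, 1.95 and 1.42 in CPIP, and 1.76, 1.51 and 1.69 after EA. All 3 Sham libraries were above the other 6. The mean ratio was 2.56 ± 0.173, 1.73 ± 0.276 and 1.65 ± 0.129 (SD, n = 3 each). For Nefh to Prph the means were 1.21 ± 0.117, 0.859 ± 0.137 and 0.766 ± 0.063, and for Nefl to Prph 3.02 ± 0.093, 2.11 ± 0.217 and 2.04 ± 0.141. The mean log2 ratio of CPIP vs. Sham differed by -0.50 for Nefh, -0.58 for Nefm and -0.52 for Nefl, and that of CPIP+EA vs. CPIP by -0.16, -0.051 and -0.047. These ratios are a description of the values above, and no test of them is given. For Nefm and Nefl, the separation of Sham from CPIP was fixed by those values. Each was lower, and Prph higher, in CPIP without overlap. Nefh was above Prph in 3 of 3 Sham libraries and in 0 of 3 CPIP and 0 of 3 CPIP+EA libraries.

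**Figure D3:**
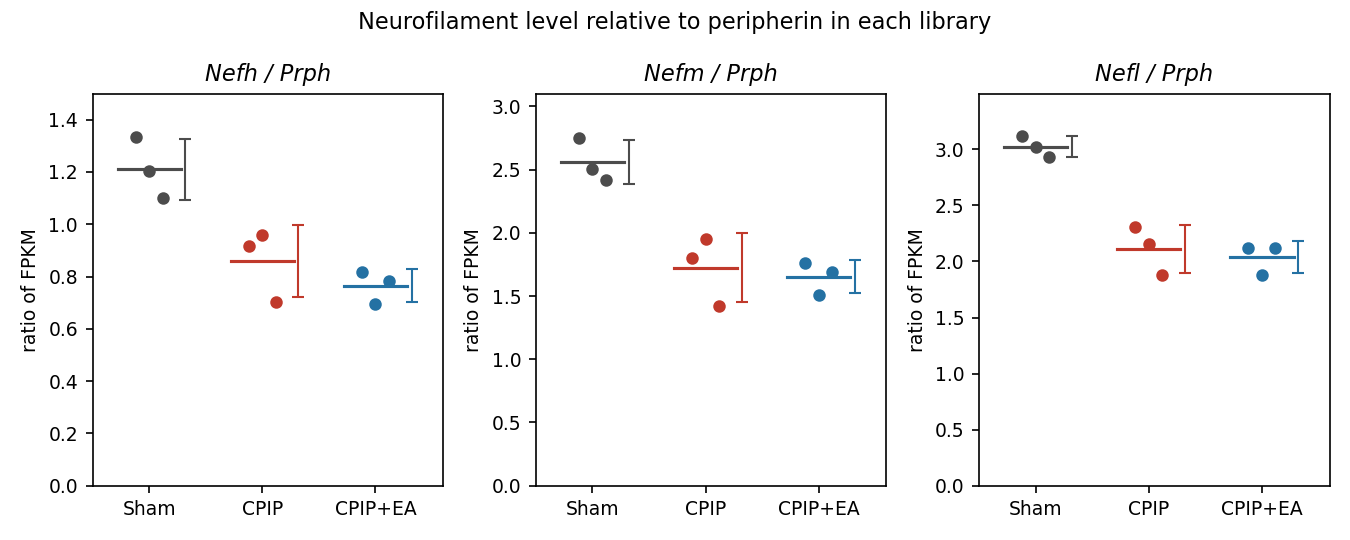
Ratio of the FPKM of Nefh, Nefm and Nefl to that of Prph in each library (points, y axis from 0), with group means as lines and the SD of 3 libraries as bars. For each chain the 3 Sham libraries lie above all CPIP and CPIP+EA libraries, with means of 2.56, 1.73 and 1.65 for Nefm. The ratio was formed after the values were seen, and Prph does not stand for the small-fiber genes.

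Pvalb (gene ID 25269), parvalbumin, a calcium buffer and the usual marker of proprioceptors, had an FPKM of 263, 264 and 282 in Sham, 232, 258 and 242 in CPIP, with 214, 259 and 278 in CPIP+EA. The 3 CPIP libraries were below the 3 Sham libraries, and CPIP+EA overlapped both groups. Its means were 269.6 ± 10.8, 244 ± 13.2 and 251 ± 32.9 (SD, n = 3 each). The log2 fold change was -0.15 (-0.37 to 0.075) in CPIP vs. Sham (adjusted p = 0.803 by limma), 0.03 (-0.19 to 0.26) in CPIP+EA vs. CPIP and -0.11 (-0.33 to 0.11) in CPIP+EA vs. Sham. The last of these was -0.004 without CPIP+EA replicate 1 and -0.19 without CPIP+EA replicate 3. Fast skeletal muscle also makes parvalbumin. Muscle markers were highest in CPIP replicate 2, which had the highest Pvalb of its group, and without it the value of CPIP vs. Sham was -0.19. The part of muscle in the Pvalb values was not tested. Pvalb did not follow the neurofilaments across libraries, with r of -0.076, 0.042 and -0.064 for Nefh, Nefm and Nefl over the 9 libraries.

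The transcription factors and the scaffold protein showed small differences. Runx3 (gene ID 156726), which keeps proprioceptors on their path during development, had an FPKM of 4.98, 4.15 and 4.98 in Sham, 4.60, 4.80 and 5.79 in CPIP, with 5.82, 4.35 and 4.99 in CPIP+EA. Its groups overlapped, and the log2 fold change was 0.09 (-0.20 to 0.39) in CPIP vs. Sham (adjusted p = 0.939 by limma), -0.0049 (-0.30 to 0.29) in CPIP+EA vs. CPIP and 0.09 (-0.21 to 0.38) in CPIP+EA vs. Sham. With 1 library left out, the first of these ranged from 0.0031 (without CPIP replicate 3) to 0.15 (without CPIP replicate 1). T and NK cells also use Runx3. Their 7 markers summed to 5.13 to 5.53 FPKM in Sham, 4.65 to 5.95 in CPIP and 3.20 to 9.12 in CPIP+EA. The 9.12 was in CPIP+EA replicate 3 and came mostly from Nkg7, a granule protein. Nkg7 was at 5.42 FPKM there against 0.69 and 1.0 in the others of its group. Cd3d, Ccl5 and Lck were also highest of the group there, at 0.38, 1.92 and 0.93 FPKM. By contrast, Cd3e, Cd8a and Cd2 were highest in CPIP+EA replicate 1, and Cd3e was at 0.0 in CPIP+EA replicate 3. The part of T and NK cells in the Runx3 values was not tested.

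Etv1 (gene ID 362733), an ETS factor needed for the central connections of proprioceptors, had an FPKM of 38.8, 32.9 and 31.1 in Sham, 34.0, 32.5 and 35.5 in CPIP, with 32.2, 30.2 and 35.9 in CPIP+EA. Here too the libraries overlapped in every comparison. The log2 fold changes of Etv1 were -0.0054 (-0.22 to 0.20) in CPIP vs. Sham, -0.06 (-0.27 to 0.15) in CPIP+EA vs. CPIP and -0.06 (-0.27 to 0.15) in CPIP+EA vs. Sham. Whrn (gene ID 313255), the scaffold protein whirlin of proprioceptors and hair cells, had an FPKM of 14.0, 12.6 and 12.4 in Sham, 12.4, 14.2 and 13.2 in CPIP, with 13.2, 12.5 and 10.9 in CPIP+EA. Again no group stood apart. Its log2 fold changes were 0.03 (-0.17 to 0.23), -0.12 (-0.32 to 0.08) and -0.09 (-0.29 to 0.11) in the same order of comparisons, with adjusted p of 0.977, 0.996 and 0.748 by limma. With 1 library left out, the second value of Whrn ranged from -0.18 to -0.0446 and the third from -0.15 to -0.0146, and both were nearest 0 without CPIP+EA replicate 3. For Runx3, Etv1 and Whrn, all intervals lay within 1.5-fold in all 3 comparisons.

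Spp1 (gene ID 25353), osteopontin, is a secreted phosphoprotein of large sensory neurons and of macrophages and bone. It had an FPKM of 573, 646 and 573 in Sham, 727, 758 and 742 in CPIP, with 582, 653 and 1008 in CPIP+EA. The CPIP libraries lay close together and above all Sham libraries, and CPIP+EA ranged from the Sham level to the highest of the 9 libraries. The means were 597 ± 42, 742 ± 15.5 and 747 ± 228 (SD, n = 3 each). The log2 fold change was 0.32 (-0.09 to 0.72) in CPIP vs. Sham, with an unadjusted p of 0.111 and an adjusted p of 0.731 by limma. EA-treated libraries differed from CPIP by -0.03 (-0.44 to 0.37) and from Sham by 0.28 (-0.12 to 0.69).

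The values of Spp1 with EA rested on CPIP+EA replicate 3. Without it, CPIP+EA vs. CPIP was -0.27 (unadjusted p = 0.019, adjusted p = 0.654 by limma) and CPIP+EA vs. Sham was 0.05. Without CPIP+EA replicate 1 the former was 0.13 and the latter 0.44, and without CPIP+EA replicate 2 the former was 0.04. Because the 3 groups share the estimate of the spread, the unadjusted p of CPIP vs. Sham was 0.00476 (adjusted p = 0.168) without CPIP+EA replicate 3, at the same log2 fold change of 0.32. The 8 macrophage markers summed to 56.3 to 68.5 FPKM in Sham, 60.8 to 74.8 in CPIP and 61.9 to 89.8 in CPIP+EA, with CPIP+EA replicate 3 the highest of all libraries. Cd68, Aif1, Csf1r, Gpnmb and Trem2 were highest of the group in that library, while Cd163, Mrc1 and Cx3cr1 were highest in CPIP+EA replicate 1. In CPIP vs. Sham, 1 of the 8 (Cx3cr1) was higher at an unadjusted p under 0.05 and 0 lower, against 8.66% of all genes tested, with a median log2 fold change of 0.12. In CPIP+EA vs. Sham, 2 (Cx3cr1 and Aif1) were higher and 0 lower, against 12.2%, with a median of 0.15. Estimates in CPIP vs. Sham ran from -0.49 for Cd163 to 0.54 for Cx3cr1, the fractalkine receptor. The 7 bone markers summed to 22.5 to 80.8, 21.9 to 54.7 and 19.3 to 44.0 FPKM in Sham, CPIP and CPIP+EA, with Sham replicate 2 the highest. The part of macrophages and bone in the Spp1 values was not tested.

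Calb1 (gene ID 83839), calbindin, a calcium buffer found in some large mechanoreceptors, differed most between groups of the 9 genes. Its FPKM was 3.47, 4.41 and 3.62 in Sham, 6.69, 4.99 and 5.71 in CPIP, with 7.91, 6.52 and 6.07 in CPIP+EA. Every CPIP and every CPIP+EA library was above every Sham library, and CPIP and CPIP+EA overlapped. The means were 3.83 ± 0.505, 5.80 ± 0.853 and 6.83 ± 0.959 (SD, n = 3 each). Calb1 had a log2 fold change in CPIP vs. Sham of 0.54 (SE 0.14, interval 0.22 to 0.85), a fold of 1.45 on the scale of FPKM + 0.5. Its unadjusted p was 0.00384 and its adjusted p 0.194 by limma, so it missed the DEG threshold. Against Sham, CPIP+EA had a log2 fold change of 0.76 (SE 0.14, interval 0.44 to 1.07), a fold of 1.69, with an unadjusted p of 0.000404 and an adjusted p of 0.0359 by limma, which also missed the threshold of 0.01. Between CPIP+EA and CPIP it was 0.22 (-0.09 to 0.54), with an unadjusted p of 0.147. With 1 library left out it ranged from 0.12, when that was CPIP+EA replicate 1, to 0.32, and it was 0.13 without CPIP replicate 2.

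Across the 21 alternatives, the adjusted p of Calb1 was 0.153 to 0.598 in CPIP vs. Sham and 0.0288 to 0.14 in CPIP+EA vs. Sham, and the unadjusted p was under 0.05 in 21 of 21 in both. At these low FPKM the pseudocount of 0.5 makes the fold change smaller than that of the FPKM. The spinal cord, which also holds calbindin, was checked through 7 of its markers in the table. They summed to 14.0 to 18.7 FPKM in Sham, 13.2 to 17.5 in CPIP and 17.0 to 24.0 in CPIP+EA, with the highest sum in CPIP+EA replicate 3. Gfap, an astrocyte protein that glia of the ganglion also make, had an FPKM of 6.06, 11.7 and 10.2 in Sham, 8.23, 9.65 and 6.26 in CPIP, with 12.8, 9.25 and 16.6 in CPIP+EA. Its log2 fold change of CPIP+EA vs. CPIP was 0.63 (unadjusted p = 0.0452, adjusted p = 0.996 by limma). Mog had an FPKM of 2.26 to 3.12 over all libraries and Slc1a3 of 4.37 to 5.05. Olig1, Olig2, Slc6a5 and Chat were at or under 0.16 FPKM in every library. The part of spinal cord in the Calb1 values was not tested.

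**Figure D4:**
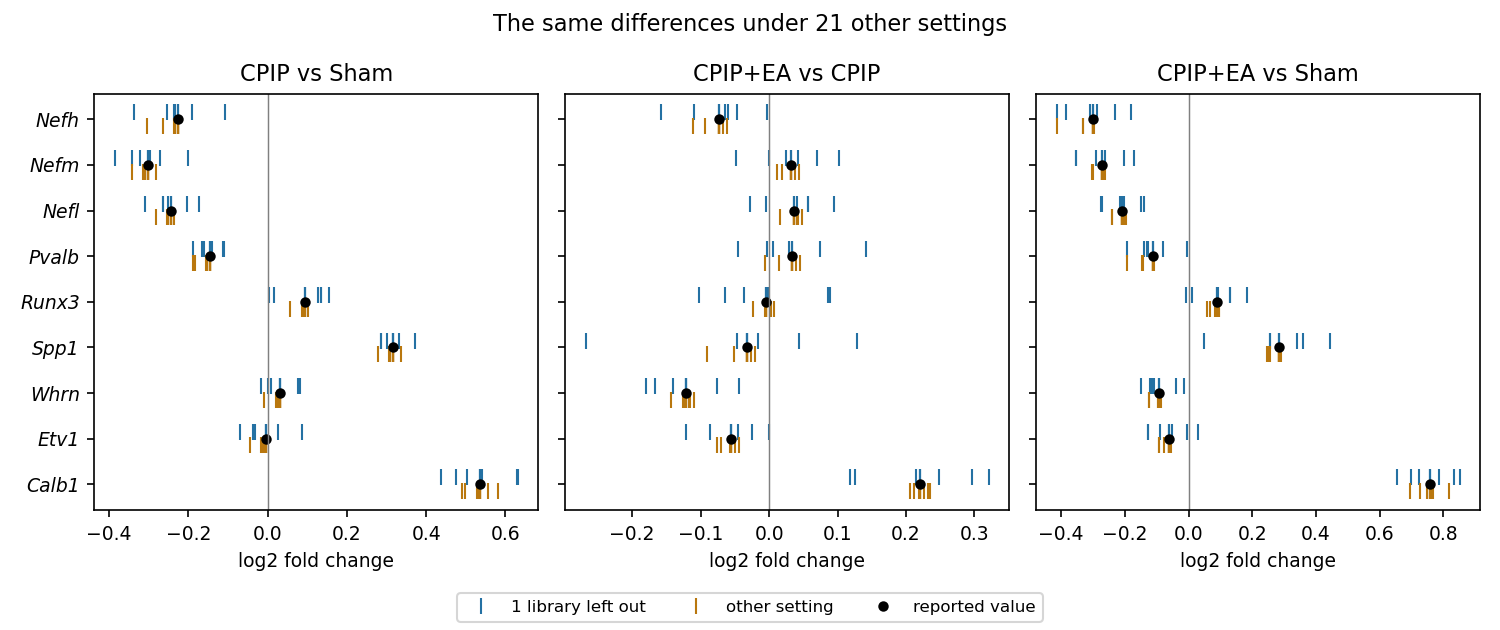
Log2 fold change of each of the 9 genes (y axis) in the 3 comparisons as reported (black), with 1 library left out (blue, 9 values) and under 12 other settings (brown). Calb1 stays between 0.44 and 0.63 in CPIP vs. Sham, while Spp1 in CPIP+EA vs. CPIP ranges from -0.27 to 0.13.

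Across the 9 libraries the genes did not move as one group. The neurofilaments and Spp1 ran in opposite directions, with r of -0.659 for Nefh, -0.727 for Nefm and -0.751 for Nefl, and Pvalb and Calb1 had r of -0.695. These values describe 9 libraries that hold the 3 groups. Among the 5 genes whose log2 FPKM over the 9 libraries was most like the mean of the 3 neurofilaments, of 13905 genes that averaged 1 FPKM or more, were Sorl1 (r = 0.9802), Fstl1 (0.9759) and Nat8l (0.9691). Sorl1, a sorting receptor, ranged from 6.60 to 13.4 FPKM. In all, 78 genes had an r above 0.9. For Pvalb the most alike were Msrb1 (r = 0.9678), Ndufaf2 (0.9449) and Cenpq (0.932), and 17 genes had an r above 0.9.

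A further 24 genes of large-fiber neurons were read beside the 9, among them the receptors Ntrk3 and Ret, the factors Maf and Shox2, Piezo2 and channels for fast firing. Of these, 0 of 24 passed the DEG threshold in any comparison. Between CPIP and Sham, 7 of 24 were lower at an unadjusted p under 0.05 (among them Ntrk3, Kcna1, Kcna2, Scn1a, Hapln4 and Cntnap2) and 0 higher, against 8.66% of all genes tested in either direction. Estimates were below 0 for 19 of 24, and the median was -0.15, beside -0.0064 over all genes tested. Against Sham, CPIP+EA had 7 of 24 lower and 0 higher at the same p, against 12.2% of all genes tested, with a median of -0.17 beside 0.0014 over all genes tested, and 22 of 24 estimates below 0. Against CPIP it had 1 of 24 (Maf) lower, against 4.29% of all genes tested, with a median of -0.0124.

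Kcna2, a potassium channel subunit beside the nodes of myelinated axons, had the smallest p of these. Its FPKM was 93.9, 96.3 and 88.0 in Sham, 75.2, 70.7 and 73.1 in CPIP, with 72.6, 77.8 and 71.2 in CPIP+EA. Both groups with CPIP were below Sham with no overlap. The log2 fold change was -0.34 (SE 0.059, adjusted p = 0.0391 by limma) in CPIP vs. Sham and -0.33 (adjusted p = 0.0334) in CPIP+EA vs. Sham. Scn1a, the sodium channel subunit Nav1.1, had an FPKM of 31.3, 28.8 and 26.1 in Sham, 23.8, 23.0 and 23.5 in CPIP, with 23.4, 25.1 and 23.8 in CPIP+EA, and its log2 fold changes in the same comparisons were -0.28 (adjusted p = 0.165 by limma) and -0.25 (adjusted p = 0.183). For Scn1a too, all 3 Sham libraries lay above the 6 others. None of these adjusted p was under 0.01, and that of Kcna2 in CPIP vs. Sham ranged from 0.0358 to 0.471 over the alternatives.

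Among 13 partners of neurofilaments in the axonal skeleton, 0 passed the DEG threshold in any comparison. At an unadjusted p under 0.05, which 8.66% of all genes tested passed in CPIP vs. Sham and 12.2% in CPIP+EA vs. Sham, 2 and 3 of the 13 were called. Tubb3, the neuronal tubulin, was higher in CPIP vs. Sham at an unadjusted p of 0.0132 (log2 fold change 0.41, adjusted p = 0.351 by limma) and Kif5b, a kinesin, was lower at 0.0163 (-0.22). In CPIP+EA vs. Sham, Prph and Tubb3 were higher and Map1a lower at an unadjusted p under 0.05. The 12 genes of small-fiber neurons had 0 past the DEG threshold. Their median in CPIP vs. Sham was -0.15, beside -0.0064 over all genes tested, with 9 of 12 estimates below 0 and 2 of 12 lower at an unadjusted p under 0.05 (Tac1 and Th), and in CPIP+EA vs. Sham the median was -0.20, beside 0.0014, with 4 of 12 lower (Scn10a, Scn11a, Th and Gfra2) and 1 (Prph) higher. Of 10 genes of all neurons, 2 were higher (Stmn2 and Tubb3) and 2 lower (Rbfox3 and Snap25) at this p in CPIP vs. Sham, and their summed FPKM was 5191 to 5874 in Sham, 5980 to 6437 in CPIP and 5656 to 6929 in CPIP+EA. After each library was centred on these 10 genes, the log2 fold changes of Nefh, Nefm and Nefl in CPIP vs. Sham were -0.26, -0.34 and -0.28.

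**Figure D5:**
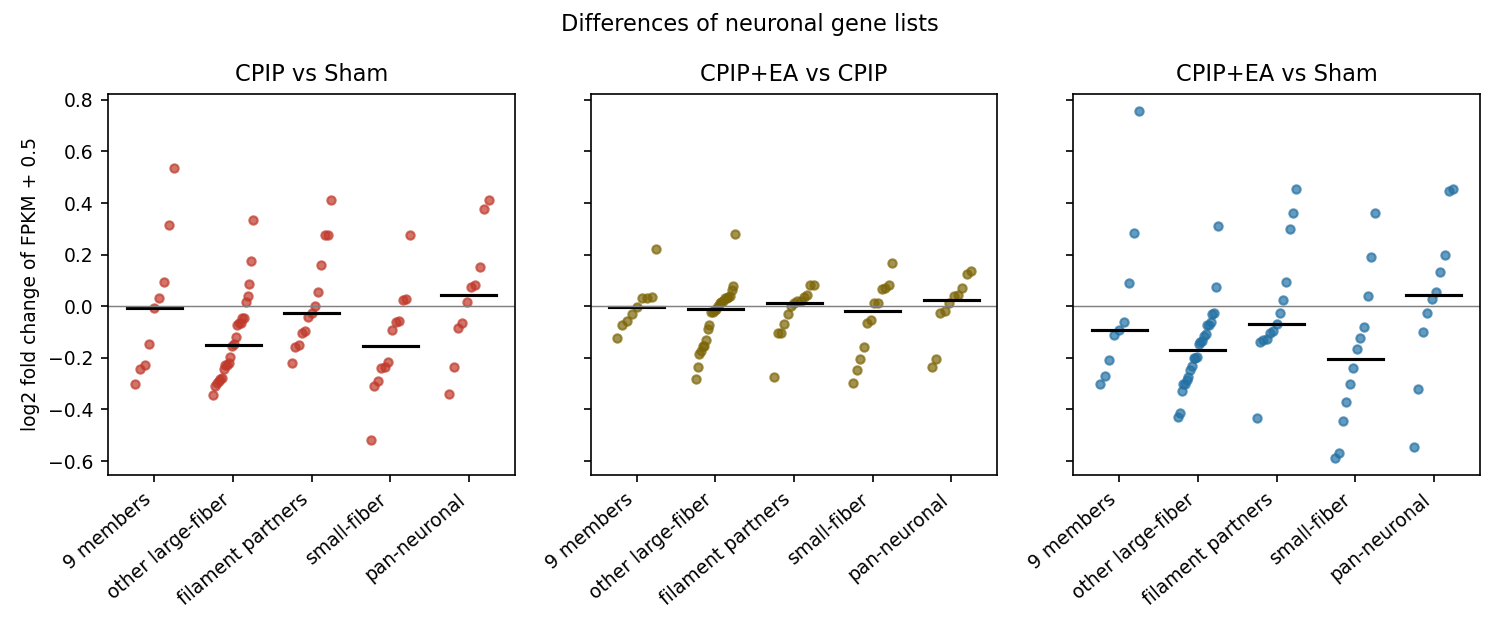
Log2 fold change of FPKM + 0.5 (y axis) of each gene (points) in the 9 genes described here and 4 other neuronal lists (x axis), with the list median as a line, in the 3 comparisons. Medians for CPIP vs. Sham are -0.0054 for the 9 genes, -0.15 for the 24 other large-fiber genes and -0.15 for the 12 small-fiber genes.

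Runx3 is a transcription factor, and factors of its family bind the letters ACCACA or ACCGCA. The 250 bases before 6 RefSeq starts of 5 of the 9 genes (Pvalb, Spp1, Whrn and Etv1 with 1 start each and Runx3 with 2) were searched for these letters on both strands (TGTGGT and TGCGGT in reverse). A match was present in 2 of the 6, that of Spp1 and 1 of the 2 of Runx3, while 19.0% of 33469 rat promoters of this length hold either motif, 14.5% ACCACA and 5.02% ACCGCA. That of Spp1, shown because both its gene and Runx3 are among the 9, lies on the minus strand of GRCr8 at chr14:5619805-5620054, with ACCGCA in capitals, its first base 126 bases before the start.

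Spp1 promoter: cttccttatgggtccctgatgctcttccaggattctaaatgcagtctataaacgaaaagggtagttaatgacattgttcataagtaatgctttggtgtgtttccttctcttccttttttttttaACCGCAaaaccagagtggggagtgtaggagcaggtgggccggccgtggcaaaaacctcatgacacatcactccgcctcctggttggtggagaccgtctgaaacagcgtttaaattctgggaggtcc

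The match describes these letters only and tells nothing of binding.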

How the data were processed

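RNA was measured by RNA-Seq in L4-6 DRGs of the Sham, CPIP and CPIP+EA groups, with 3 libraries each, grouped by the treatment given in the labels. Read filtering by the authors used SOAPnuke, and an FPKM value was deposited for every gene in every library, to 2 decimals. The aligner, genome build and annotation are not given in the sources used here, so no positions of the genes are given beyond the RefSeq promoter. The same table holds the authors' own comparisons (a log2 ratio, a P-value, a Q-value), which were not used. All per-sample columns were assigned to a library.

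FPKM carries no read counts, so no count test was run. The test was limma (version 3.58.1, R 4.3.3) on log2(FPKM + 0.5), two-sided, with lmFit, contrasts.fit and the eBayes trend, with all 9 libraries in 1 fit without covariates, on 17187 genes that averaged 0.1 FPKM or more, and p-values were adjusted by Benjamini-Hochberg over these genes. The DEG threshold (1.5-fold, adjusted p under 0.01) follows the study, but the counts do not. By its own comparisons the study reported DEGs in CPIP vs. Sham and also in CPIP+EA vs. CPIP, where limma called none here. Confidence intervals of 95% are from the same fit and are not adjusted. Ratios between genes are given without a test. The script was tested on simulated data. Python 3.11.15, numpy 2.4.6, pandas 2.3.3, scipy 1.17.1 and matplotlib 3.10.9 were used.

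The 9 genes and 12 other lists were chosen with earlier results of these data known. All 9 genes are named with the values of each library. Of each other list, genes past the threshold, else up to 3 with the smallest unadjusted p under 0.05, and up to 2 most abundant genes of a cell type list could be named, as could the genes most like the neurofilaments (5) and Pvalb (3). Genes listed for a count of 7 or fewer were named in addition, after their values were seen. So were the markers Cd3d, Cd3e, Cd8a, Lck, Cd68, Gpnmb, Trem2, Cd163, Mrc1, Mog, Olig1, Olig2, Slc6a5 and Chat. Ckm, Ret, Shox2 and Piezo2 are named as examples of their lists. Some genes that these rules name are not reported here. The alternatives tried were other pseudocounts (0.1 and 1), other filters (none, or a mean of 1 FPKM), other scalings (TPM, quantile normalization, centring of each library on its median or on the neuronal genes), the eBayes step with a robust trend or no trend, a block for the replicate number, fits of 2 groups at a time, and leaving out each library.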

Additional observations from a re-analysis of the deposited data

How the results depend on the processing

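The count of the 9 genes past the DEG threshold was 0 in all 3 comparisons under all 21 alternatives. Of 567 values of single genes, 547 kept their direction and 20 turned it, each with a log2 fold change near 0 or with a single library left out. A part of the 547 could not turn. Another filter, trend or choice of groups, the replicate block and leaving out a library of the group not compared keep the same estimate. Of 1005 values of genes in the other lists, 964 kept their side of the DEG threshold and 41 lost the call, all of them of Jun, Gap43 or Sox11, with the direction kept. The count at an unadjusted p under 0.05 was 1 in CPIP vs. Sham. It was 2 with centring on neuronal genes (which called 4.94% of all genes tested), the replicate block (8.26%) or only the 2 groups compared (10.4%), and 3 with the filter at a mean of 1 FPKM (8.97%), with no trend (8.5%) or with a robust one (8.57%). The genes gained were Nefm, Nefl or Spp1. In CPIP+EA vs. Sham it was 1, became 2 with a pseudocount of 0.1 (12.2%), the filter at a mean of 1 FPKM (13.0%), centring on neuronal genes (6.96%) or the replicate block (11.9%), and 3 with quantile normalization (12.1%), no trend (12.0%) or a robust one (12.1%), with Nefh, Nefm or Pvalb gained. Leaving out a library gave 1 to 3 in CPIP vs. Sham (3 without Sham replicate 3, at 7.79% of all genes, or CPIP+EA replicate 3, at 10.5%), 0 to 1 in CPIP+EA vs. CPIP (Spp1, without CPIP+EA replicate 3, at 7.27%) and 1 to 3 in CPIP+EA vs. Sham (3 without Sham replicate 3, at 1884 of 17186 genes, or CPIP+EA replicate 1, at 13.4%). The cause of these shifts was not tested.

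Directions turned in CPIP+EA vs. CPIP for Pvalb with quantile normalization (-0.0063), for Runx3 with quantile normalization (0.0023), median centring (0.0065) and centring on neuronal genes (0.0011), and in CPIP vs. Sham for Whrn with centring on neuronal genes (-0.0081). With 1 library left out, ranges that held 0 were, in CPIP+EA vs. CPIP, -0.0485 to 0.1018 for Nefm, -0.0278 to 0.0943 for Nefl, -0.0461 to 0.1423 for Pvalb, -0.1025 to 0.0885 for Runx3, -0.2681 to 0.128 for Spp1 and -0.1215 to 0.0001 for Etv1. In CPIP vs. Sham they were -0.0158 to 0.0819 for Whrn and -0.0707 to 0.0867 for Etv1, and in CPIP+EA vs. Sham -0.0078 to 0.1832 for Runx3 and -0.1269 to 0.0309 for Etv1.

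Whether the replicate numbers pair the libraries was not settled, because deviations within a group of 3 libraries sum to 0 and so constrain each other. Deviations from group means of libraries with the same number had r of -0.236 to 0.297, with 2 of 9 above 0.1, and those with different numbers -0.223 to 0.28, with 5 of 18 above 0.1. With the replicate block the counts at an unadjusted p under 0.05 were 2, 0 and 2 of 9, against 8.26%, 4.05% and 11.9% of all genes tested. The number of libraries and the lack of counts limit the precision.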
